A study of Mus musculus with 20 samples.

Results

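The genes described here are 10 named members of the unfolded protein response and the integrated stress response, followed in tumour-associated myeloid cells of mice: Hspa5, Hsp90b1, Herpud1, Xbp1, Atf4, Ddit3, Trib3, Chac1, Asns and Sesn2. They were chosen by symbol and matched to the Entrez identifiers of the count tables, where all 10 were found among 23090 genes. All 10 passed the filter on low counts in each of the 5 comparisons. There were 4 groups of 5 libraries, for a total of 20. The gMDSC CBPi and mMDSC CBPi groups came from mice given GNE-781 (CBPi) at 25 mg/kg, a compound that blocks the bromodomains of the related acetyltransferases CBP and EP300, and the gMDSC vehicle and mMDSC vehicle groups from mice given MCT, the vehicle. Dosing was by oral gavage, BID, for 7 days, and it began once tumours averaged 150 to 200 mm3. All mice were female SCID.beige animals, 6 to 8 weeks old, which lack T cells, B cells and functional NK cells. Each carried a subcutaneous tumour, grown from injected cells of either MDA.MB.231-X1.1, whose parent line is a human breast cancer, or CT26, a mouse colon carcinoma line. The labels tie no library to a tumour line or to a mouse, so the line cannot be told apart from other differences between libraries. The p-values measure the spread between these libraries, part of which may be technical. Both populations were sorted from digested tumours as CD45+ CD11b+ Ly6C+ F4/80- cells. The granulocytic myeloid-derived suppressor cells (gMDSC) carried Ly6G and the monocytic ones (mMDSC) did not.

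The unfolded protein response senses misfolded protein in the endoplasmic reticulum (ER) through the sensors PERK, IRE1 and ATF6. PERK phosphorylates the translation initiation factor eIF2, which slows most translation and favours that of ATF4, and other eIF2 kinases reach the same step from amino-acid shortage, haem shortage or viral RNA, a convergence called the integrated stress response. ATF4 and its partner CHOP, the product of Ddit3, induce genes of amino-acid supply, redox balance and cell death, whereas ATF6 and spliced XBP1 induce ER chaperones and the ER-associated degradation machinery. In tumours the response is known from secretory and nutrient-starved cells, and in myeloid-derived suppressor cells the PERK, IRE1 and CHOP branches have been studied for their part in suppressive function.

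The libraries held 12372630 to 26635889 counts in genes. CPM values below are counts scaled to a common library size, with TMM factors over the 20 libraries, and the authors' RPKM values, which are per length, are used where genes are compared with each other. Of the sort-gate genes, Adgre1, which encodes F4/80, was at 438 CPM or more in all 20 libraries in spite of the F4/80- gate. Ly6g was at 0.529 to 2.14 CPM in gMDSC CBPi and 0.438 to 9.2 CPM in gMDSC vehicle libraries, against at most 0.404 CPM in mMDSC. Ly6c2 was lower in gMDSC, at 12.7 to 19.9 CPM under CBPi and 20.5 to 68.7 CPM with vehicle, than in mMDSC, at 292 to 408 CPM under CBPi and 619 to 1203 CPM with vehicle. The summed level of 14 neutrophil markers was 8147 to 15112 CPM in gMDSC CBPi and 9455 to 35927 CPM in gMDSC vehicle libraries, against 218 to 374 CPM in mMDSC CBPi and 346 to 427 CPM in mMDSC vehicle libraries. With vehicle, 10 macrophage markers summed to 35470 to 78065 CPM in gMDSC and 25276 to 34535 CPM in mMDSC. Of these, 5 were called higher and 1 lower in gMDSC with vehicle, and 3 and 2 under CBPi, where the sums overlapped. Of 8 monocyte markers, 3 were called higher and 4 lower in gMDSC under each treatment. Of all genes, 13.6% were called higher and 8.08% lower with vehicle, and 20.1% and 19.1% under CBPi. Plasma cells, which express many of the chaperone genes below at high levels, were checked with 10 plasma and B cell markers. The summed level of these was 75.0 to 138 CPM in gMDSC CBPi and 117 to 207 CPM in gMDSC vehicle libraries, against 70.3 to 118 CPM in mMDSC CBPi and 114 to 158 CPM in mMDSC vehicle libraries, with 2 or 3 markers over 1 CPM in each group. Jchain and Pax5 were at 0 in all gMDSC and mMDSC libraries, and the other 8 were not. The part of these marker levels in the differences between the populations was not tested.

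Regulatory sequence upstream of the members was read for the letters that the stress-activated factors are known to bind, since the members differ in these elements. The window was the 250 bases before each gene's RefSeq start (GRCm38.p6), and all 10 members matched. The ER stress response element bound by ATF6 with NF-Y, which is CCAAT and CCACG with 9 bases of any kind between them, was found once upstream of Hspa5 at positions -65 to -47 and 2 times upstream of Hsp90b1, and in 0.113% of 32851 promoters searched on both strands. Its second form, ATTGG and CCACG with 1 base between them, was found upstream of Herpud1, at -52 to -42, and in 0.0304% of promoters. The C/EBP-ATF element bound by ATF4 dimers, TGATGNAA, was found upstream of Herpud1, Chac1 and Asns, and in 3.45% of promoters. The core TGACGTGG, known from XBP1 and ATF6 binding, was in 0 of the 10 windows and in 0.563% of promoters. The first element contains the CCAAT box, which alone was in 33.8% of promoters. Xbp1, Atf4, Ddit3, Trib3 and Sesn2 had none of the longer motifs in these windows, which says only that these letters are absent there. The windows of 4 members that carry the motifs follow, gene strand, with the motifs in capitals on either strand: an ER stress response element in Hspa5 (chr2:34771840-34772089, + strand) and Hsp90b1 (chr10:86705445-86705694, - strand), its second form and a C/EBP-ATF element in Herpud1 (chr8:94386179-94386428, + strand), and a C/EBP-ATF element in Asns (chr6:7693210-7693459, - strand).
Hspa5: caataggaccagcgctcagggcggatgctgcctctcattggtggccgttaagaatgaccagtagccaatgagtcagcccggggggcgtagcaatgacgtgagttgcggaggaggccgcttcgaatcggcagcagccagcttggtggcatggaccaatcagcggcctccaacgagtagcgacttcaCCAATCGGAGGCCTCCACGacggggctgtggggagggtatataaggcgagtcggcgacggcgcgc
Hsp90b1: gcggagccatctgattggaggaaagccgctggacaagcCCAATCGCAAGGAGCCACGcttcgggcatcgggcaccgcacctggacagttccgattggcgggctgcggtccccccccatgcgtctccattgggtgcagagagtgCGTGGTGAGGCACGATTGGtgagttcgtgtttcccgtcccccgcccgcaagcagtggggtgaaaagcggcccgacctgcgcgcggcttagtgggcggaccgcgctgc
Herpud1: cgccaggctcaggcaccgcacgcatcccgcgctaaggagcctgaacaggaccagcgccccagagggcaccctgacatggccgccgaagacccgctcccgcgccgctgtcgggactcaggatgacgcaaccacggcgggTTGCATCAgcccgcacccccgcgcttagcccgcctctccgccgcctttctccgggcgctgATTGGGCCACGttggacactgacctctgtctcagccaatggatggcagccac
Asns: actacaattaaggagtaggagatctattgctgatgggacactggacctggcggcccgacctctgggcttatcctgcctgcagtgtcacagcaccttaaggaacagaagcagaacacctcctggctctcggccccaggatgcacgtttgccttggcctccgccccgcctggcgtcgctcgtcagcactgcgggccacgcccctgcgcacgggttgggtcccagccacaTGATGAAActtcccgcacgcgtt

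Per length, the ER chaperone Hspa5 was the most abundant member in all 4 groups and the glutathione-degrading enzyme Chac1 the least abundant. Hspa5 averaged 1139.8 ± 85.1 RPKM in gMDSC CBPi, 755 ± 137 in gMDSC vehicle, 1232 ± 196 in mMDSC CBPi and 845 ± 119.6 RPKM in mMDSC vehicle libraries (SD, n = 5 each). Chac1 averaged 2.58 RPKM or less in every group. The order of the members between them differed most for Ddit3 and, under CBPi, as much for Hsp90b1. By mean RPKM Ddit3 ranked 2 of 10 in gMDSC CBPi and 3 of 10 in gMDSC vehicle libraries, against 5 of 10 in mMDSC CBPi and 6 of 10 in mMDSC vehicle libraries. In gMDSC CBPi its 199 to 288 RPKM overlapped the 188 to 227 RPKM of Xbp1, the next gene in the order. In mMDSC, Hsp90b1 held the second place, with 289 to 384 RPKM under CBPi and 271 to 323 RPKM with vehicle, and overlapped neither Hspa5 above it nor Xbp1 below it. In gMDSC, Hsp90b1 ranked 5 of 10 under CBPi and 4 of 10 with vehicle.

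**Figure D1:**
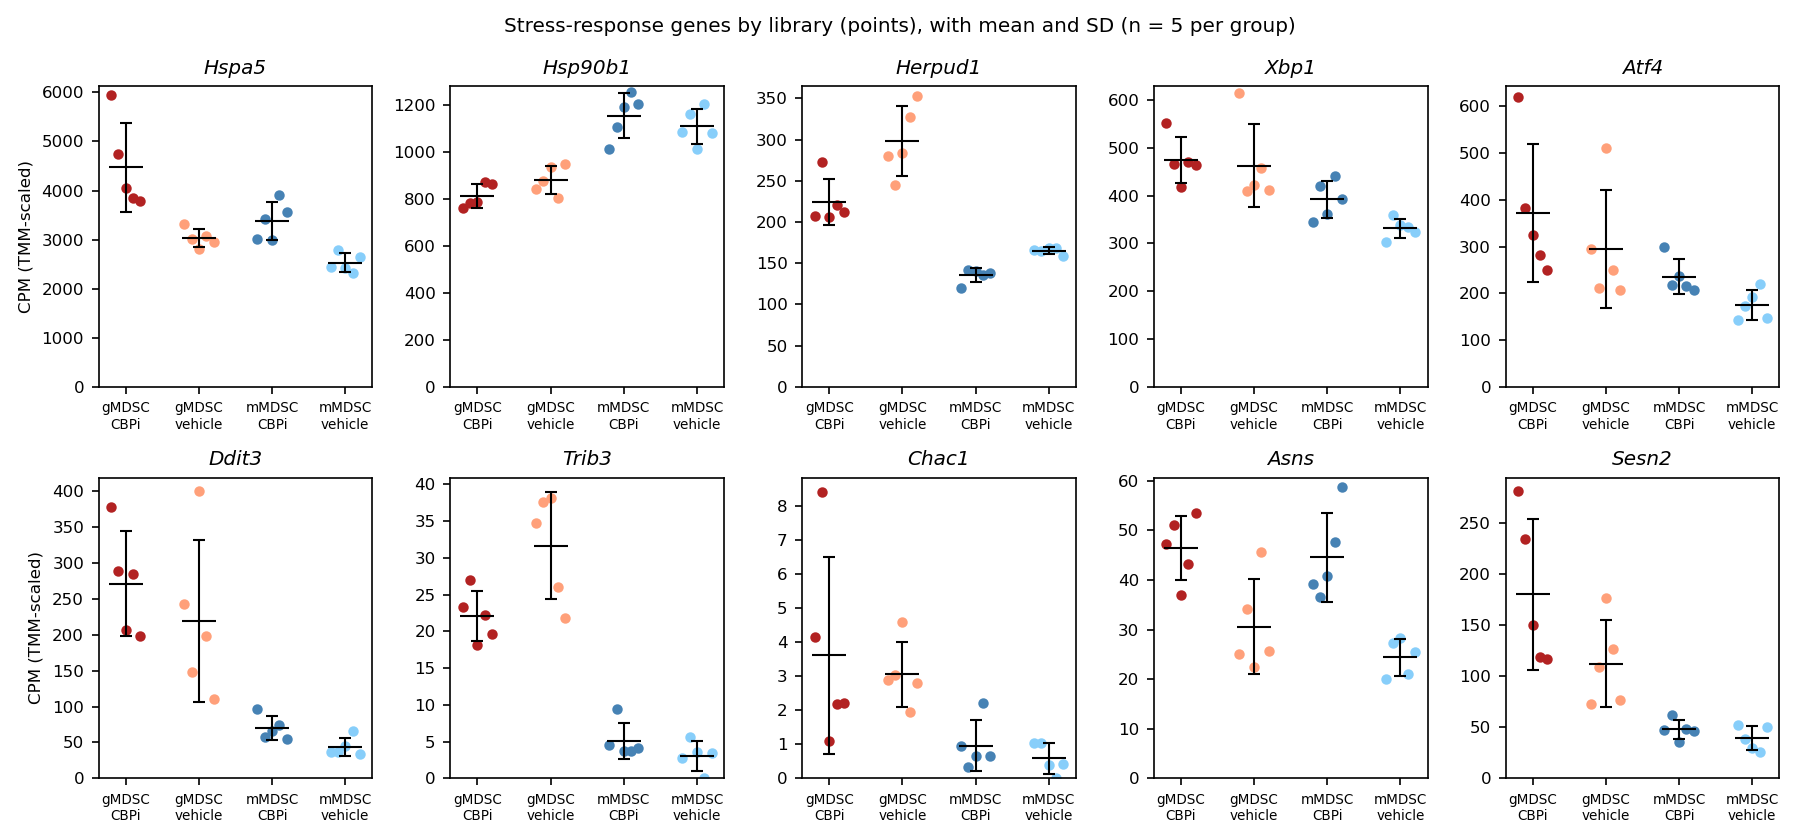
TMM-scaled CPM of the 10 genes in every library (points), with the mean (long bar) and SD (short bars) of 5 libraries in each of the 4 groups, on linear axes that start at 0. The gMDSC points lie above the mMDSC points of the same treatment for Herpud1, Ddit3, Trib3 and Sesn2, the mMDSC points lie above for Hsp90b1, and CBPi points lie above vehicle points of the same population for Hspa5; without TMM factors the mean difference of Hspa5 between the populations reverses.

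The main contrast among these genes was between the populations. The transcription factor gene Ddit3, the pseudokinase gene Trib3 and the sestrin gene Sesn2 were several-fold higher in gMDSC than in mMDSC under both treatments, the ER-degradation gene Herpud1 was higher by less, and under CBPi the chaperone gene Hsp90b1 was lower. Under CBPi, 9 of the 10 members passed the test, 8 higher and 1 lower in gMDSC. The background in that comparison was 39.2% of 11895 genes called, 20.1% higher and 19.1% lower. With vehicle, 7 of 10 members passed, all higher in gMDSC, where 21.7% of 11576 genes were called, 13.6% higher and 8.08% lower. The median log2 fold change of the 10 members was 0.74 under CBPi and 0.82 with vehicle, beside -0.05 and -0.06 over all genes tested. The populations differ widely, and the scale matters: with library totals in place of TMM factors the median of all genes shifts to -0.53 under CBPi and -0.43 with vehicle. On that scale 20.5% of called genes were higher under CBPi, against 51.4% with TMM, and with vehicle 27.1%, against 62.8%. Members called higher were then 3 under CBPi, beside 1300 of 11895 genes, and 4 with vehicle, beside 1009 of 11576. Hsp90b1 was the 1 member called lower under each treatment, beside 5056 genes called lower under CBPi and 2714 with vehicle. In bulk RNA, fewer cells of a type and less RNA per cell cannot be told apart.

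**Figure D2:**
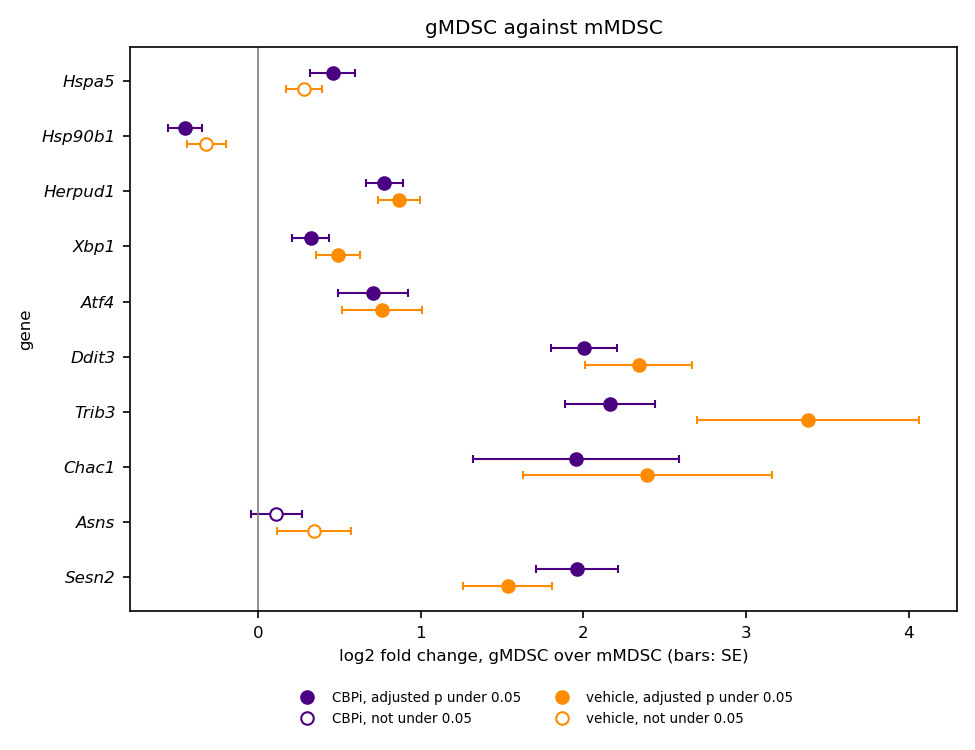
Log2 fold change of each gene in gMDSC over mMDSC (points; bars, SE) under CBPi and with vehicle, from edgeR's quasi-likelihood test on 10 libraries each; filled points have an adjusted p under 0.05. Ddit3, Trib3, Chac1 and Sesn2 lie at 1.54 or above under both treatments and Hsp90b1 lies below 0; without TMM factors Hspa5 and Xbp1 under CBPi change to -0.046 and -0.17.

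Ddit3 (chr10:127290793-127296291, + strand) encodes CHOP, the factor that ATF4 induces and that can bring on cell death. Its levels were 378, 289, 207, 284 and 198 CPM in gMDSC CBPi libraries 6 to 10, and 96.8, 57.5, 66.6, 74.5 and 54.3 CPM in mMDSC CBPi libraries 6 to 10. With vehicle they were 243, 148, 401, 198 and 109.9 CPM in gMDSC libraries 1 to 5, and 36.8, 36.3, 44.5, 65.4 and 34.6 CPM in mMDSC libraries 1 to 5. The lowest gMDSC library lay above the highest mMDSC library under each treatment. The log2 fold change, gMDSC over mMDSC, was 2.01 ± 0.20 under CBPi (SE; edgeR adjusted p = 6.38e-06) and 2.34 ± 0.33 with vehicle (edgeR adjusted p = 0.000208). The call held under every alternative and without any 1 library. The Ddit3 span overlaps those of Mbd6 and Mars1, and whether the counting used strand is not given. Mars1 had 487 to 3079 counts a library and was not called in either comparison (log2 -0.28 and -0.31). Mbd6 was higher in gMDSC, by log2 0.94 under CBPi and 1.05 with vehicle, at 100 to 293 counts a library beside 661 to 5840 for Ddit3.

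Trib3 (chr2:152337425-152344060, - strand), an ATF4 and CHOP target that in turn restrains ATF4, was low in mMDSC. It was at 23.4, 27.0, 18.2, 22.2 and 19.7 CPM in gMDSC CBPi libraries, and 4.58, 9.44, 3.67, 3.66 and 4.19 CPM in mMDSC CBPi libraries. With vehicle it was at 34.7, 37.6, 38.1, 26.1 and 21.9 CPM in gMDSC libraries, and 2.70, 5.66, 3.57, 0 and 3.41 CPM in mMDSC libraries. The populations did not overlap, and mMDSC vehicle library 4 had no Trib3 count, which allows up to 0.16 CPM. gMDSC exceeded mMDSC by a log2 fold change of 2.16 ± 0.28 under CBPi (edgeR adjusted p = 4.94e-05) and 3.38 ± 0.68 with vehicle (edgeR adjusted p = 0.00316); without that library the vehicle value was 3.06 (edgeR adjusted p = 3.41e-05).

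Sesn2 (chr4:132492804-132510456, - strand) encodes sestrin 2, an inhibitor of mTORC1 signalling that stress induces. Levels were 282, 234, 150.3, 119 and 117 CPM in gMDSC CBPi libraries, and 47.5, 62.1, 35.2, 48.3 and 46.5 CPM in mMDSC CBPi libraries. With vehicle they were 73.2, 109, 176, 127 and 76.7 CPM in gMDSC libraries, and 51.7, 38.0, 29.7, 26.2 and 50.6 CPM in mMDSC libraries. All gMDSC libraries again lay above all mMDSC libraries of the same treatment. For Sesn2 the log2 fold change was 1.96 ± 0.25 under CBPi (edgeR adjusted p = 4.81e-05) and 1.54 ± 0.27 with vehicle (edgeR adjusted p = 0.00132), and both calls held under every alternative.

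Chac1 (chr2:119351242-119354326, + strand), the ATF4 and CHOP target that breaks down glutathione, was near the limit of detection. It was at 4.14, 8.41, 1.10, 2.18 and 2.21 CPM in gMDSC CBPi libraries, and 0.940, 0.328, 0.656, 2.22 and 0.652 CPM in mMDSC CBPi libraries. With vehicle it was at 2.90, 3.04, 4.58, 1.94 and 2.80 CPM in gMDSC libraries, and 1.03, 1.05, 0.404, 0 and 0.426 CPM in mMDSC libraries, of which library 4 had no count. The groups overlapped under CBPi and did not with vehicle. The log2 fold change was 1.96 ± 0.64 under CBPi (edgeR adjusted p = 0.0259) and 2.39 ± 0.76 with vehicle (edgeR adjusted p = 0.0407). Leaving out 1 library ended the call under CBPi for gMDSC CBPi 7 or for mMDSC CBPi 6, 7, 8 or 10, with adjusted p up to 0.111. With vehicle it ended for each of the gMDSC libraries and for each mMDSC library but number 4, with adjusted p up to 0.102.

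Asns (chr6:7675165-7693209, - strand), the asparagine synthetase gene and a classic ATF4 target, was the only member that passed the test between the populations under neither treatment. It averaged 46.4 ± 6.53 CPM in gMDSC CBPi and 44.6 ± 8.92 CPM in mMDSC CBPi libraries (SD, n = 5 each), with a log2 fold change of 0.11 (95% interval -0.23 to 0.45; edgeR adjusted p = 0.610). With vehicle it averaged 30.6 ± 9.53 CPM in gMDSC and 24.4 ± 3.73 CPM in mMDSC libraries, a log2 fold change of 0.34 (95% interval -0.15 to 0.84; edgeR adjusted p = 0.331).

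Atf4 (chr15:80255184-80257545, + strand), whose product is controlled mainly at translation, was higher in gMDSC by less than Ddit3 was. Levels were 619.7, 383, 324, 282 and 250.2 CPM in gMDSC CBPi libraries, and 299.5, 217, 238, 216 and 208 CPM in mMDSC CBPi libraries. With vehicle they were 295, 211, 512, 251 and 208 CPM in gMDSC libraries, and 143, 172, 192, 220.1 and 148 CPM in mMDSC libraries. The populations overlapped under both treatments. Atf4 had a log2 fold change of 0.71 ± 0.22 under CBPi (edgeR adjusted p = 0.0188) and 0.76 ± 0.24 with vehicle (edgeR adjusted p = 0.0412). Without gMDSC CBPi library 6 the value under CBPi was 0.45 (adjusted p = 0.0355). The vehicle call was lost without gMDSC library 1, 3 or 4 or mMDSC library 1, 2, 3 or 5 (adjusted p up to 0.0989), and without gMDSC library 3 the value was 0.47. Without TMM factors neither call remained (log2 0.18 and 0.36). Within a library, Ddit3 had 0.761 ± 0.157 counts per Atf4 count in gMDSC CBPi and 0.725 ± 0.119 in gMDSC vehicle libraries, against 0.295 ± 0.037 in mMDSC CBPi and 0.246 ± 0.033 in mMDSC vehicle libraries (SD, n = 5 each). This ratio needs no scaling between libraries, and its lowest value in gMDSC, 0.529, lay above its highest in mMDSC, 0.345. It rests on the same counts as the levels above, so it is not separate support, and it is given without a test.

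The library with the most Atf4 within its group was also the library with the most Ddit3, in 4 of 4 groups on the CPM scale and in 4 of 4 on the RPKM scale. These were gMDSC CBPi 6, gMDSC vehicle 3, mMDSC CBPi 6 and mMDSC vehicle 4. The gMDSC pair also had the lowest TMM factors of the 20 libraries, 0.739 and 0.744. In gMDSC vehicle 3 the counts made up 50.25% of the total behind the RPKM values, the lowest share of the 20. Sesn2 was highest in the same gMDSC libraries, but not in the same mMDSC ones. A shared highest library was not particular to Atf4 and Ddit3. By CPM Hspa5 and Xbp1 shared theirs in every group, and by RPKM in mMDSC only.

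Xbp1 (chr11:5520641-5525993, + strand) encodes the factor that IRE1 activates by splicing, and counts per gene do not separate the spliced form. It was at 551, 465, 418, 471 and 464 CPM in gMDSC CBPi libraries, and 345, 419, 363, 441 and 393 CPM in mMDSC CBPi libraries. With vehicle it was at 614, 409.7, 422, 458 and 412 CPM in gMDSC libraries, and 304, 359, 338, 334 and 324 CPM in mMDSC libraries. The groups did not overlap with vehicle. For Xbp1 the log2 fold change was 0.33 ± 0.11 under CBPi (edgeR adjusted p = 0.0367) and 0.49 ± 0.14 with vehicle (edgeR adjusted p = 0.0201). The call under CBPi was lost without any of gMDSC libraries 6, 7, 9 and 10 or mMDSC libraries 6, 8 and 10 (adjusted p up to 0.0880), and the vehicle call without gMDSC library 1 or mMDSC library 1 or 3 (adjusted p up to 0.0548). Without TMM factors the value was -0.17 under CBPi and 0.12 with vehicle.

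Hspa5 and Hsp90b1, the genes of the ER chaperones BiP and GRP94 that share the ER stress response element shown above, differed between the populations in opposite directions under CBPi, which for Hspa5 holds with TMM factors and reverses without them. Hsp90b1 (chr10:86690841-86705444, - strand) was at 764, 783, 788, 875 and 864 CPM in gMDSC CBPi libraries, and 1012, 1109, 1192, 1258 and 1204 CPM in mMDSC CBPi libraries. With vehicle it was at 841, 876, 935, 806 and 949 CPM in gMDSC libraries, and 1086, 1163, 1015, 1204 and 1083 CPM in mMDSC libraries. It was lower in every gMDSC library than in any mMDSC library of the same treatment. For Hsp90b1 the log2 fold change was -0.45 ± 0.11 under CBPi (edgeR adjusted p = 0.00444) and -0.32 ± 0.12 with vehicle (edgeR adjusted p = 0.0782). Without gMDSC vehicle library 3 the vehicle comparison passed (adjusted p = 0.0402). Hspa5 (chr2:34772090-34776529, + strand) was at 5949, 4750.0, 4060.3, 3839 and 3789 CPM in gMDSC CBPi libraries, and 3012, 3429, 2986, 3902 and 3558 CPM in mMDSC CBPi libraries. With vehicle it was at 3319.8, 3017, 2819, 3079 and 2953 CPM in gMDSC libraries, and 2449.8, 2789.9, 2427, 2310.4 and 2653 CPM in mMDSC libraries. The groups overlapped under CBPi and did not with vehicle. Hspa5 had a log2 fold change of 0.46 ± 0.14 under CBPi (edgeR adjusted p = 0.0193) and 0.28 ± 0.11 with vehicle (edgeR adjusted p = 0.0955). The call under CBPi was lost without gMDSC library 7 or mMDSC library 8 (adjusted p up to 0.0518), and without TMM factors the value was -0.046 under CBPi and -0.092 with vehicle. The overlapping gene Rabepk had 200 to 763 counts a library beside 29553 to 114590 for Hspa5.

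Herpud1 (chr8:94386429-94395371, + strand) encodes a membrane protein of the ER-associated degradation complex. It was at 207, 272, 206, 221 and 212 CPM in gMDSC CBPi libraries, and 120.3, 142, 141, 136 and 139 CPM in mMDSC CBPi libraries. With vehicle it was at 281, 245, 283, 327 and 353 CPM in gMDSC libraries, and 166, 164, 168, 169 and 159 CPM in mMDSC libraries. The populations did not overlap under either treatment. Herpud1 was higher in gMDSC by log2 0.78 ± 0.12 under CBPi (edgeR adjusted p = 0.000167) and 0.87 ± 0.13 with vehicle (edgeR adjusted p = 0.000378). Both calls held without any 1 library. Without TMM factors the values were 0.29 (adjusted p = 0.0591) under CBPi and 0.50 (adjusted p = 0.0217) with vehicle. Counted over the members on the CPM scale, the populations did not overlap for 5 genes under CBPi, beside 29.9% of all genes tested: 4 were higher in gMDSC, beside 14.4%, and 1 lower, beside 15.6%. With vehicle they did not overlap for 8 genes, beside 20.2%: 7 were higher in gMDSC, beside 11.3%, and 1 lower, beside 8.89%. These counts depend on the scale. By the authors' RPKM the populations overlapped with vehicle for Hspa5, Xbp1, Herpud1 and Sesn2. Herpud1 overlapped under CBPi too, at 59.1 to 85.7 RPKM in gMDSC and 56.3 to 71.9 RPKM in mMDSC.

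Fewer members passed the test for the bromodomain inhibitor. In gMDSC Hspa5 alone passed, and was higher under CBPi, 1 of 10 called beside 9.71% of 11694 genes, 4.18% higher and 5.52% lower. Asns and Sesn2 had larger estimates there, log2 0.64 and 0.72 against 0.60 for Hspa5, and did not pass. In mMDSC, Hspa5 and Asns passed as higher and no member passed as lower, 2 of 10 beside 8.56% of 11912 genes, 3.02% higher and 5.54% lower. Estimates were positive for 7 of 10 members in gMDSC, with a median of 0.31 beside 0.00 over all genes tested, and for 9 of 10 in mMDSC, with a median of 0.42 beside 0.01. At an unadjusted p under 0.05 there were 5 members in gMDSC, beside 25.9% of genes, and 6 in mMDSC, beside 22.4%. In mMDSC the scaling moved the balance of all calls: 58.8% of called genes were higher without TMM factors, against 35.3% with them, as the median of all genes shifted to 0.13. The gMDSC and mMDSC responses share no libraries.

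**Figure D3:**
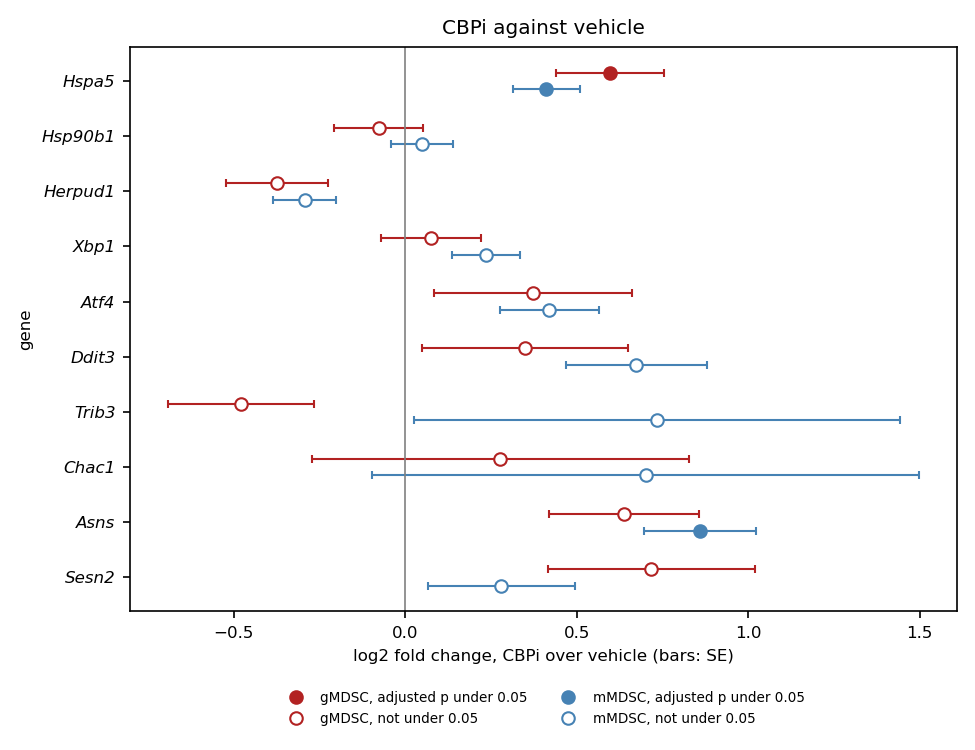
Log2 fold change of each gene in CBPi over vehicle libraries (points; bars, SE) in gMDSC and in mMDSC, from edgeR's quasi-likelihood test on 10 libraries each; filled points have an adjusted p under 0.05. Hspa5 lies at 0.60 in gMDSC and 0.41 in mMDSC, Asns at 0.64 and 0.86, and Herpud1 below 0 in both.

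Hspa5 averaged 4477 ± 908 CPM in gMDSC CBPi and 3037 ± 185 CPM in gMDSC vehicle libraries, and its lowest CBPi library lay above its highest vehicle library. The log2 fold change was 0.60 ± 0.16 (edgeR adjusted p = 0.0321). This call was lost without gMDSC CBPi 6, 7 or 8 or gMDSC vehicle 1, 2 or 4, with adjusted p up to 0.0836 and log2 values of 0.48 to 0.63. In mMDSC, Hspa5 averaged 3378 ± 387 CPM under CBPi and 2526 ± 192 CPM with vehicle (SD, n = 5 each), again without overlap. Its log2 fold change there was 0.41 ± 0.10 (edgeR adjusted p = 0.0206), and the call was lost without mMDSC CBPi 9 or 10 or mMDSC vehicle 3, with adjusted p up to 0.0646.

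Hsp90b1 did not pass the test in either population. It averaged 815 ± 50.6 CPM in gMDSC CBPi and 882 ± 60.8 CPM in gMDSC vehicle libraries, a log2 fold change of -0.08 (95% interval -0.36 to 0.20; edgeR adjusted p = 0.751). In mMDSC it averaged 1155 ± 96.1 CPM under CBPi and 1110.5 ± 74.2 CPM with vehicle, a log2 fold change of 0.05 (95% interval -0.15 to 0.24; edgeR adjusted p = 0.816). The ratio of the chaperone counts within a library shows the contrast free of scaling. Hspa5 had 5.56 ± 1.42 counts per Hsp90b1 count in gMDSC CBPi (4.39 to 7.78) and 3.47 ± 0.41 in gMDSC vehicle libraries (3.01 to 3.95). It had 2.93 ± 0.25 in mMDSC CBPi (2.50 to 3.10) and 2.28 ± 0.22 in mMDSC vehicle libraries (1.92 to 2.45; SD, n = 5 each). CBPi and vehicle libraries did not overlap in either population. The ratio was chosen after the values of both genes were seen and is given without a test.

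**Figure D4:**
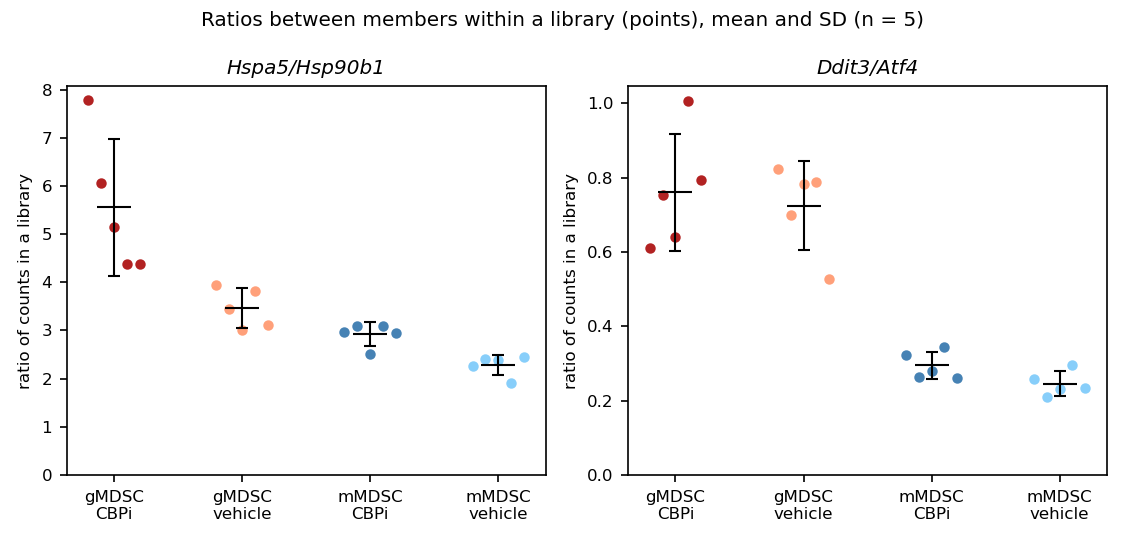
Ratio of Hspa5 to Hsp90b1 counts (left) and of Ddit3 to Atf4 counts (right) in every library (points), with mean and SD of 5 libraries a group, on linear axes from 0. The Hspa5 ratio is highest in gMDSC CBPi, at 4.39 to 7.78, and lowest in mMDSC vehicle libraries, at 1.92 to 2.45, and the Ddit3 ratio lies at 0.529 or above in gMDSC and at 0.345 or below in mMDSC.

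Asns was at 47.3, 51.1, 37.1, 43.2 and 53.5 CPM in gMDSC CBPi libraries, and at 25.0, 34.2, 22.5, 45.8 and 25.7 CPM in gMDSC vehicle libraries. Vehicle library 4 overlapped the CBPi libraries. The log2 difference was 0.64 ± 0.22 (edgeR adjusted p = 0.0865), and without that library 0.81 (adjusted p = 0.0344). In mMDSC, Asns was at 39.3, 36.5, 40.7, 47.6 and 58.7 CPM in CBPi libraries, and at 19.9, 27.3, 28.4, 21.1 and 25.5 CPM in vehicle libraries. Every mMDSC CBPi library was above every mMDSC vehicle library. Asns rose there by log2 0.86 ± 0.16 (edgeR adjusted p = 0.00577), and the call held under every alternative and without any 1 library, with adjusted p up to 0.0199.

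Atf4 and Ddit3 did not pass the edgeR test in either population. In gMDSC the log2 fold change, CBPi over vehicle, was 0.37 ± 0.29 for Atf4 (edgeR adjusted p = 0.446) and 0.35 ± 0.30 for Ddit3 (edgeR adjusted p = 0.503), and the groups overlapped. Without gMDSC CBPi library 6 these values were 0.11 for Atf4 and 0.20 for Ddit3. Without gMDSC vehicle library 3 they were 0.65 and 0.67, and Ddit3 was at 0.18 without vehicle library 5. In mMDSC it was 0.42 ± 0.14 for Atf4 (edgeR adjusted p = 0.0959) and 0.67 ± 0.21 for Ddit3 (edgeR adjusted p = 0.0641). Without mMDSC vehicle library 4, the vehicle library with the most of both, both passed, at 0.52 (adjusted p = 0.0263) and 0.87 (adjusted p = 0.00754). With all libraries, Atf4 and Ddit3 passed in mMDSC by DESeq2 (adjusted p = 0.041 and 0.0174). They also passed by edgeR without TMM factors (adjusted p = 0.0206 and 0.0189). By limma-voom Ddit3 passed (adjusted p = 0.0461) and Atf4 did not. Sesn2, higher in gMDSC CBPi libraries 6 and 7 than in any gMDSC vehicle library, had a log2 fold change of 0.72 ± 0.30 in gMDSC (edgeR adjusted p = 0.153). Without gMDSC vehicle library 3 it passed, at 0.93 (adjusted p = 0.0499). In mMDSC its value was 0.28 ± 0.21 (edgeR adjusted p = 0.487).

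Herpud1 was the member whose estimate was negative in both populations. It averaged 224 ± 27.7 CPM in gMDSC CBPi and 298 ± 42.5 CPM in gMDSC vehicle libraries, a log2 fold change of -0.37 ± 0.15 (edgeR adjusted p = 0.134). In mMDSC it averaged 136 ± 8.76 CPM under CBPi and 165 ± 4.13 CPM with vehicle (SD, n = 5 each), without overlap, a log2 fold change of -0.29 ± 0.09 (edgeR adjusted p = 0.0671). By CPM, CBPi and vehicle libraries did not overlap for 1 of 10 members in gMDSC, beside 12.2% of genes, where Hspa5 was higher (4.94% of genes were higher without overlap, and 7.23% lower). In mMDSC they did not overlap for 3 of 10, beside 9.76%: Hspa5 and Asns were higher, 2 members beside 4.2% of genes, and Herpud1 was lower, 1 member beside 5.57%. By RPKM Herpud1 overlapped in mMDSC, at 56.3 to 71.9 under CBPi and 64.7 to 80.2 with vehicle. Trib3 had a log2 fold change of -0.48 ± 0.21 in gMDSC (edgeR adjusted p = 0.174) and 0.73 ± 0.71 in mMDSC (edgeR adjusted p = 0.599), where it was 0.38 without CBPi library 7 and 0.41 without vehicle library 4. Xbp1 had 0.08 ± 0.15 in gMDSC (edgeR adjusted p = 0.788) and 0.23 ± 0.10 in mMDSC (edgeR adjusted p = 0.181). Chac1 had 0.28 ± 0.55 in gMDSC (edgeR adjusted p = 0.795) and 0.70 ± 0.80 in mMDSC (edgeR adjusted p = 0.665). Its positive estimates rest on few libraries: the gMDSC value was -0.31 without CBPi library 7, and the mMDSC value 0.12 without CBPi library 9.

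Some marker levels moved with the treatment too, and their part in these results was not tested. The counts below stand beside 4.18% of all genes called higher and 5.52% lower in gMDSC, and 3.02% and 5.54% in mMDSC. The summed level of 10 macrophage markers was 18035 to 33453 CPM in gMDSC CBPi and 35470 to 78065 CPM in gMDSC vehicle libraries, with 2 of 10 tested lower and none higher. In mMDSC it was 21945 to 26673 CPM under CBPi and 25276 to 34535 CPM with vehicle, with 3 lower and 1 higher. Of 8 monocyte markers, 5 were lower and 2 higher under CBPi in gMDSC, and 5 lower and 1 higher in mMDSC. Of the neutrophil markers, whose sums are given above, 4 of 12 tested were lower and 0 higher in gMDSC, with a median of -0.93, and 1 of 12 went each way in mMDSC. T and NK cell markers summed to 5.18 to 11.4 CPM in gMDSC CBPi and 24.4 to 57.1 CPM in gMDSC vehicle libraries, without overlap, and 2 of 6 were lower. In mMDSC they summed to 1.41 to 17.0 CPM under CBPi and 12.8 to 36.4 CPM with vehicle, with 1 of 5 lower. Mast cell, basophil and eosinophil markers summed to 16.2 to 23.9 CPM in gMDSC CBPi and 53.3 to 86.9 CPM in gMDSC vehicle libraries, again without overlap, and to at most 5.79 CPM in mMDSC. Of the dendritic cell markers 1 of 8 was lower in mMDSC and 0 of 6 in gMDSC, and of the stromal, endothelial and epithelial markers 2 of 10 were lower in gMDSC and 1 of 11 in mMDSC.

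The difference between the CBPi responses, gMDSC minus mMDSC, passed the test for 0 of 10 members, beside 0.725% of 12688 genes. By edgeR 0 members, beside 11.5% of genes, had an unadjusted p under 0.05, and DESeq2 called 0. Intervals for the difference were wide: -0.23 to 0.51 for Hspa5, -0.83 to 0.30 for Asns and -2.73 to 0.24 for Trib3 on the log2 scale. Adjusted p-values ran from 0.537 to 0.949.

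The wider pathway was followed in 7 lists with 120 genes that are not members, first between the populations. In 20 stress transcription factors and effectors, 17 tested under CBPi, 10 were higher and 1 lower in gMDSC, beside 20.1% higher and 19.1% lower of all genes, with a median of 0.97. With vehicle 7 of 16 were higher and 1 lower, beside 13.6% and 8.08%, with a median of 0.59. Bcl2l11, the gene of the pro-apoptotic protein BIM, was higher in gMDSC by 2.50 ± 0.22 under CBPi (edgeR adjusted p = 1.85e-06) and 1.12 ± 0.15 with vehicle (edgeR adjusted p = 0.000145). Sqstm1, the autophagy receptor gene, was higher with vehicle by 1.12 ± 0.13 (edgeR adjusted p = 6.13e-05). Nupr1, a stress-induced chromatin protein gene, was the gene lower in this list under CBPi, by a log2 fold change of -2.02 ± 0.18 (edgeR adjusted p = 2.12e-06). Of 10 stress sensors and their processing genes, 2 were higher and 1 lower in gMDSC under CBPi, with a median of -0.16, and 2 were higher and 0 lower with vehicle, with a median of -0.31. Atf6b, which encodes a relative of ATF6, was the lower one under CBPi, at log2 -0.70 ± 0.14 (edgeR adjusted p = 0.00151). Eif2ak3, which encodes PERK, was at 93.6 ± 23.6 CPM in gMDSC CBPi and 32.4 ± 6.26 CPM in mMDSC CBPi libraries (SD, n = 5 each; log2 1.58 ± 0.19, edgeR adjusted p = 2.59e-05). With vehicle Eif2ak3 was at 77.7 ± 28.7 CPM in gMDSC and 32.4 ± 9.38 CPM in mMDSC libraries (log2 1.28 ± 0.31, edgeR adjusted p = 0.0106). Ppp1r15a, which encodes GADD34, the subunit that directs phosphatase to eIF2, was at 4928 ± 1201 CPM in gMDSC CBPi and 2138 ± 341 CPM in mMDSC CBPi libraries (log2 1.26 ± 0.17, edgeR adjusted p = 6.78e-05). Eif2s1, the gene of the phosphorylated eIF2 subunit itself, was lower in gMDSC with vehicle, at log2 -0.51 ± 0.15 (edgeR adjusted p = 0.0297), a call lost without 4 of 10 libraries in turn.

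Of 22 ER chaperones and folding enzymes other than the members, all tested under CBPi, 13 were lower and 3 higher in gMDSC, beside 19.1% lower and 20.1% higher of all genes, with a median of -0.60. Of 21 tested with vehicle 5 were lower and 1 higher, beside 8.08% and 13.6%, with a median of -0.36. Pdia6, a disulfide isomerase gene, was lower by a log2 fold change of -0.89 ± 0.13 under CBPi (edgeR adjusted p = 0.00011) and -0.65 ± 0.13 with vehicle (edgeR adjusted p = 0.00277). Dnajb11, the gene of a BiP co-chaperone, was lower with vehicle, at -0.72 ± 0.12 (edgeR adjusted p = 0.000756). Of 12 aminoacyl-tRNA synthetase genes of the ATF4 response, 7 were lower and 1 higher under CBPi, and 1 was lower and 2 higher with vehicle. Of the amino-acid supply genes, 6 of 15 were lower and 2 higher under CBPi, and 1 of 16 each way with vehicle. Slc7a11, the cystine transporter gene, was at 254 ± 108 CPM in gMDSC CBPi and 19.0 ± 3.84 CPM in mMDSC CBPi libraries (log2 3.79 ± 0.28, edgeR adjusted p = 3.53e-07). Mthfd2, a mitochondrial folate enzyme gene, was lower, at -1.38 ± 0.14 (edgeR adjusted p = 7.27e-06). Over the 7 lists 24 of 110 genes were higher and 41 lower under CBPi, or 21.8% and 37.3%, beside 20.1% and 19.1% of all genes. With vehicle 16 of 109 were higher and 12 lower, or 14.7% and 11%, beside 13.6% and 8.08%, so the shares higher were near those of all genes under both treatments. Without TMM factors these counts were 14 and 68 under CBPi, beside 1300 and 5056 of 11895 genes. With vehicle they were then 8 and 41, beside 1009 and 2714 of 11576 genes.

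**Figure D5:**
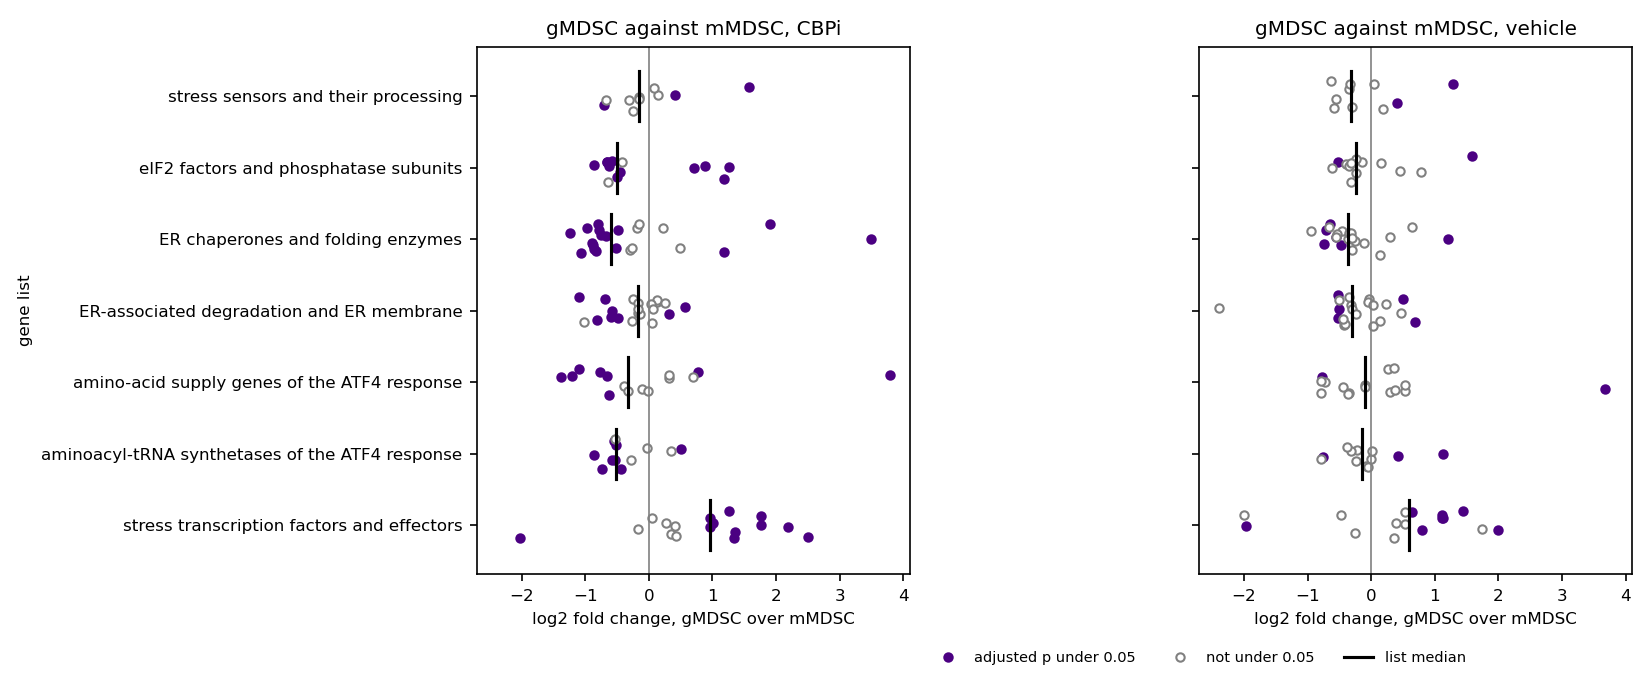
Log2 fold change in gMDSC over mMDSC of each tested gene of 7 stress-response lists (points; filled, adjusted p under 0.05 by edgeR) under CBPi (left) and with vehicle (right), with the list median (bar). The median of the stress transcription factors and effectors lies at 0.97 and 0.59 and that of the ER chaperones and folding enzymes at -0.60 and -0.36.

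Under CBPi itself, against vehicle, these lists had 11 of 108 genes higher and 5 lower in gMDSC, beside 4.18% and 5.52% of all genes, and 6 of 112 higher and 1 lower in mMDSC, beside 3.02% and 5.54%. The mMDSC count higher was 20 without TMM factors and 19 by DESeq2, beside 693 and 678 of 11912 genes. The gMDSC count lower was 13 in a single fit over all 20 libraries, beside 1310 of 12688 genes. In mMDSC Ppp1r15a rose to 2138 ± 341 CPM under CBPi, against 1329 ± 74.0 CPM with vehicle (log2 0.68 ± 0.11, edgeR adjusted p = 0.00261), and Slc1a5, a glutamine transporter gene, rose by log2 0.47 ± 0.13 (edgeR adjusted p = 0.0409), a call lost without 8 of 10 libraries in turn. Eif2s1 was the gene that fell there, by a log2 fold change of -0.40 ± 0.10 (edgeR adjusted p = 0.0269), a call lost without 5 of 10. Ero1a, the ER oxidase gene that recharges disulfide isomerases, was at 1030.0 ± 535 CPM in gMDSC CBPi and 93.6 ± 34.2 CPM in gMDSC vehicle libraries (log2 3.50 ± 0.36, edgeR adjusted p = 0.000104). In mMDSC it was at 94.7 ± 15.9 CPM under CBPi and 60.4 ± 9.66 CPM with vehicle (log2 0.64 ± 0.15, edgeR adjusted p = 0.0196). P4hb, the gene of the disulfide isomerase PDI, rose in gMDSC by log2 1.46 ± 0.25 (edgeR adjusted p = 0.00346). Rtcb, the gene of the RNA ligase that joins Xbp1 mRNA after IRE1 cuts it, fell in gMDSC to 97.5 ± 16.9 CPM under CBPi, against 209 ± 23.9 CPM with vehicle (log2 -1.07 ± 0.17, edgeR adjusted p = 0.00200). Of the stress transcription factors and effectors, which include Vegfa and Ndrg1, 6 of 16 were higher and 1 lower in gMDSC, beside 4.18% and 5.52%. In mMDSC 2 of 17 were higher and 0 lower, beside 3.02% and 5.54%. Vegfa rose in gMDSC by log2 2.89 ± 0.32 (edgeR adjusted p = 0.000162) and in mMDSC by 1.15 ± 0.20 (edgeR adjusted p = 0.00325). Ero1a, P4hb, Vegfa and Ndrg1 are also known targets of hypoxia, and a part of hypoxia was not tested.

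For 4 members the genes with the most similar profile were sought over 20 libraries, as the smallest root-mean-square difference of centred log2 CPM among 12678 genes. For Hspa5 these were Neu1 (0.133) and Saraf (0.143), where the median over all genes was 0.743, and for Xbp1 Slu7 (0.122) and Becn1 (0.143), with a median of 0.699. For Atf4 they were Ubb (0.184) and Nktr (0.187), with a median of 0.863. For Ddit3 they were Arg2 (0.249) and Nfkbia (0.277), with a median of 1.41. These are descriptions over libraries that share depth and composition.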

How the data were processed

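Poly-A RNA of sorted cells was measured in 20 libraries. The authors deposited whole-number counts per gene, without normalization, and RPKM values whose library total was larger: gene counts were 50.25% to 62.44% of it. GSNAP and the build GRCm38 are named per the submitters' processing notes. How counting was done, and whether by strand, is not given in the sources used here. A symbol in RefSeq GRCm38.p6 was matched to 21647 of 23090 IDs.

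The deposited counts went into edgeR 4.0.16, run under R 4.3.3 (TMM, filterByExpr with minimum count 10 and minimum total 15, quasi-likelihood test, Benjamini-Hochberg adjusted p under 0.05 over all genes), on the 10 libraries of each comparison, or on 20 for the difference of responses. SE is the log2 fold change over the square root of F. Intervals cover 95%, from the t quantile at the test's degrees of freedom. CPM are TMM-scaled over 20 libraries. The scripts were tested on simulated data in which few genes were changed. For CBPi a 1.5-fold change was called for 2.99% of changed genes in gMDSC and 7.46% in mMDSC. A 4-fold change was called for 69.7% and 81.8%. For the difference in response a 2-fold change was called for 10.4% and a 4-fold change for 40.9%. A member that did not pass may thus still have changed. The closest 2 replicates differed with a chi-square per degree of freedom of 21.6, so none was treated as a library deposited again; whether libraries share a mouse is not stated. Alternatives used DESeq2 1.42.0, limma 3.58.1, other scaling, filters, blocks and left-out libraries.

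The members and lists were chosen with earlier results of these data known. Besides the members, the text names, per comparison and list, up to 2 genes with the smallest p among those called, 2 profile neighbours of 4 members, and gate genes.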

Additional observations from a re-analysis of the deposited data

Results flagged for a closer look

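In 5 of 40 sets of 1 member in 1 group, a library stood apart from the other 4 by Dixon's test at the 95% level, which chance alone does in about 1 set in 20. Herpud1 was at 120.3 CPM in mMDSC CBPi library 6, the lowest of its group, and at 272 CPM in gMDSC CBPi library 7, the highest. Xbp1 was at 614 CPM in gMDSC vehicle library 1 and Atf4 at 512 CPM in gMDSC vehicle library 3, both the highest of the group. Trib3 was at 9.44 CPM in mMDSC CBPi library 7, again the highest.

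The CBPi response differed between the populations for 4 genes named from the pathway lists, by the interaction test of edgeR over 20 libraries. The difference, gMDSC minus mMDSC, was a log2 value of 2.81 ± 0.40 for Ero1a (SE; edgeR adjusted p = 0.00153), 1.58 ± 0.25 for Ndrg1 (edgeR adjusted p = 0.00339) and 1.34 ± 0.26 for Bcl2l11 (edgeR adjusted p = 0.0175). For Gars, the glycyl-tRNA synthetase gene, it was -0.78 ± 0.18 (edgeR adjusted p = 0.0490), a call lost under 23 of 26 alternatives, with adjusted p up to 0.140. The Bcl2l11 call was lost with the replicate block (adjusted p = 0.0941), and the calls of Ero1a and Ndrg1 under 0 of 26. Over the 7 lists 4 of 112 genes were called higher and 1 lower, beside 0.497% and 0.229% of 12688 genes.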

How the results depend on the processing

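Of the results for single members under the alternatives, 843 kept their side of the threshold, 56 lost the call, 19 gained it and 2 called results reversed. The 843 include results not called whose sign changed. Hspa5 between the populations with vehicle, at 0.28 with TMM factors and -0.092 without, is an example. With library totals in place of TMM factors, an alternative chosen after seeing the data, Hspa5 and Xbp1 in gMDSC against mMDSC under CBPi reversed, to -0.046 and -0.17. On that scale 5 members were called higher under CBPi in mMDSC, beside 693 of 11912 genes. Between the populations 3 were higher and 1 lower under CBPi, beside 1300 and 5056 of 11895 genes. With vehicle 4 were higher and 1 lower, beside 1009 and 2714 of 11576 genes. DESeq2 called 1926 genes and 2 members higher for CBPi in gMDSC (1135 genes by edgeR). In mMDSC it called 1647 genes, 4 members higher and 1 lower (1020 genes by edgeR). It called 277 genes for the difference in response (92 by edgeR). Between the populations with vehicle it called 1 member lower, beside 1196 of 11576 genes. A single fit over all 20 libraries called 2182 genes, 2 members higher and 1 lower for CBPi in gMDSC, and 639 genes and 1 member higher in mMDSC. Between the populations with vehicle that fit called 1 member lower, beside 1519 of 12688 genes. The cause was not tested.

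Libraries were not taken as paired by number: the correlation of the deviations of same-numbered libraries ran from 0.011 to 0.112 under CBPi and -0.031 to 0.168 with vehicle. Under CBPi 3 of 5 gMDSC and 1 of 5 mMDSC libraries correlated best with their own number, and with vehicle 0 of 5 gMDSC and 3 of 5 mMDSC libraries. With the replicate block 52 genes were called for the difference in response, and Xbp1 and Chac1 lost both of their calls between the populations.

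Leaving out 1 library at a time gave 587 to 1394 genes and 0 to 2 members higher for CBPi in gMDSC, and 694 to 1143 genes and 1 to 4 members higher in mMDSC. The lowest gMDSC counts came without CBPi library 7, at 587, and without CBPi library 6, at 708. The difference in response had 34 to 111 genes. Between the populations 5 to 8 members were higher under CBPi, beside 4076 to 4662 genes called in either direction. With vehicle 4 to 7 members were higher and 0 to 1 lower, beside 2032 to 3270 genes called in either direction. Chac1 had 0 to 62 counts a library in mMDSC, so counting error is large there. The library without a Trib3 or Chac1 count, mMDSC vehicle 4, held 18413385 counts in all, more than mMDSC vehicle 1 and 3, and the cause was not tested.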
